A study of Homo sapiens with 191 samples.

Results

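The genes examined here encode transcription factors that pattern the embryo, and they were set against all protein-coding genes, themselves included, in a list of accessible chromatin regions from GM12878. GM12878 is a human lymphoblastoid line, made by transforming B cells with Epstein-Barr virus. The members were the protein-coding genes whose symbols belong to 16 families: the homeobox families NKX, DLX, LHX, IRX, EN, OTX, EMX, MSX, GSX and BARHL and the family that includes SIX2, SIX4 and SIX5, the POU homeobox families POU3F and POU4F, the paired box family PAX, the T-box family TBX and the zinc finger family ZIC. PAX5, a factor that B cells need, was left out by the rule. This gave 85 genes of 20090 protein-coding genes on chromosomes 1 to 22 and X. ZIC factors carry no homeodomain, so the set is wider than homeobox and T-box genes in the strict sense.

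Homeodomain, T-box and paired box proteins bind DNA and control the genes of a tissue or a body segment. Each is used in few places and times, such as forebrain, limb, heart, gut or sensory neurons. In cells that do not use them, their CpG-rich promoters are typically held silent by Polycomb complexes, which compact chromatin and mark histone H3. ATAC-seq reads accessible DNA by the insertions of a transposase, and a promoter in compact chromatin gives few of them.

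The libraries formed 1 group, with 96 single cells from plate 1 and 95 from plate 2. The cells were fixed, permeabilised, transposed in bulk and sorted with no antibody stain, and no other genotype or treatment was compared. The deposited values are 1 list of 50000 regions, each 501 bp wide, that the authors derived from pooled cells, and whether libraries that failed their filter were in the pool is not stated outright. The list holds neither single-cell values nor replicates, so no spread between samples can be given, and it gives no depth per cell. A region accessible in few cells and one weakly accessible in many cannot be told apart. Of 8 B cell marker genes, 7 had a promoter region, against 0 of 4 T cell and 0 of 4 erythroid genes.

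Of the 85 developmental factor genes, 23 had a promoter region (27.1%, exact 95% binomial interval 18.0 to 37.8), against 57.2% of all protein-coding genes (11499 of 20090). A gene counted when the centre of a listed region lay within 1 kb of any of its annotated transcription start sites (TSSs). Members had a median of 3 annotated TSSs and all genes 5, so members had fewer places at which to count. Genes are not replicates, and no test was run on these shares. The interval covers counting error only. The 59 genes of the homeobox and POU families had a promoter region in 16 cases (27.1%), the 13 T-box genes in 4 (30.8%), the 8 PAX genes in 3 (37.5%) and the 5 ZIC genes in none (interval 0 to 52.2). These classes are small, and their intervals overlap.

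**Figure D1:**
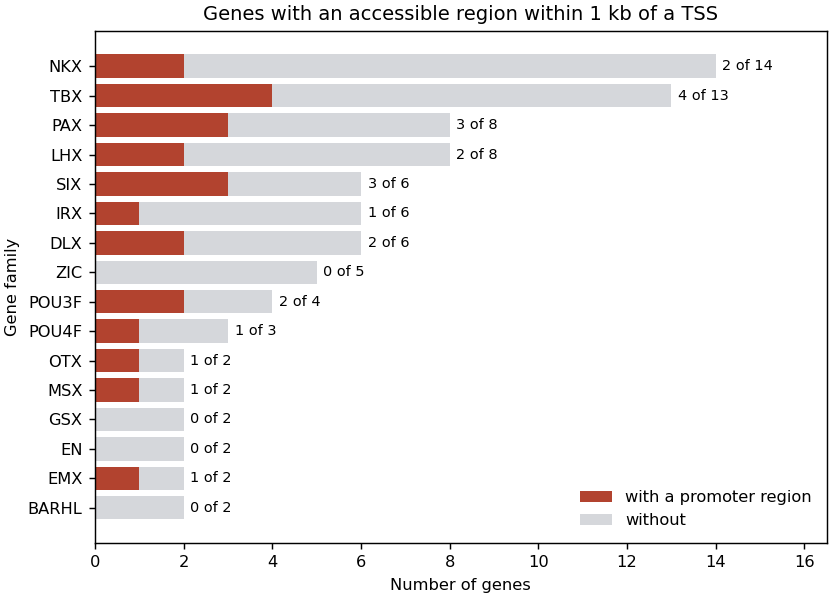
Number of genes with (red) and without (grey) a promoter region in each of the 16 families, with the count beside each bar. NKX has a promoter region in 2 of 14 genes, TBX in 4 of 13, and the ZIC, GSX, EN and BARHL families in none.

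EMX1, OTX1, DLX2 and PAX8 were among the members with the strongest promoter regions. EMX1, a homeobox gene of the developing cerebral cortex on chromosome 2 (73143389 to 73163200, hg19), had a region with a score of 222.7 centred 204 bp upstream of a TSS. The score, as the authors deposited it, is -log10 of a q-value, and a higher score marks a more certain region. EMX1 held 5 promoter regions in all, with scores of 222.7, 163.8, 83.9, 25.7 and 16.0, the most of any member. OTX1, which patterns the forebrain and sense organs, had 1 region with a score of 201.3, centred 5 bp from a TSS. DLX2, a factor of forebrain interneurons and the jaw, had a score of 143.5 at 100 bp upstream, and PAX8, a thyroid and kidney factor, 106.3. The strongest regions of these 4 genes ranked between 4605 and 9211 of the 50000 in the list.

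Upstream sequence of these promoters is shown to give the base composition and motifs of the accessible stretches. Bases are hg19 (GRCh37), written 5′ to 3′ on the strand of the gene and ending at or before the TSS, with annotated exons left out. Capitals mark matches to GGGGCGGGG (SP/KLF), CCAAT (NFY) or their reverse complements. EMX1 (chr2:73144398-73144647, plus strand) lies wholly inside a listed region, and OTX1 (chr2:63277626-63277875, plus strand) has 245 of 250 bases inside one. DLX2 (chr2:172967629-172967733, minus strand) and PAX8 (chr2:113993160-113993270, minus strand, 140 to 250 bases upstream of an internal TSS) are shorter because exons of other transcripts were removed.
EMX1: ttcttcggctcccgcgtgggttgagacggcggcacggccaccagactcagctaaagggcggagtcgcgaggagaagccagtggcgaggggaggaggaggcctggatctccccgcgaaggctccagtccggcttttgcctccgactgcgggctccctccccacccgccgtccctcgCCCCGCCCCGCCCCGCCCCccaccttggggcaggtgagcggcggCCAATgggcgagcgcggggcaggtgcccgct
OTX1: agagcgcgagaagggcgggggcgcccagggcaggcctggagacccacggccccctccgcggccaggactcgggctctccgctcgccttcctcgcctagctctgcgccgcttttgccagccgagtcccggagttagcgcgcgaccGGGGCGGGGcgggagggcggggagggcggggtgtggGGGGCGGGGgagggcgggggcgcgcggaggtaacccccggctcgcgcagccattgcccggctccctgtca
DLX2: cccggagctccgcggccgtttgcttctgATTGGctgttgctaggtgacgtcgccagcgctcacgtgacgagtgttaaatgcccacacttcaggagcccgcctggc
PAX8: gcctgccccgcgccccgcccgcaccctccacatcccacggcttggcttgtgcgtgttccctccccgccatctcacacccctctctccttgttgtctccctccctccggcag

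The EMX1 stretch held 27 CpG dinucleotides in 250 bases and a run of overlapping SP/KLF matches, and the OTX1 stretch held 32 CpG and 2 such matches. Of all protein-coding genes, 24.1% had this motif in the 250 bases upstream of the canonical TSS (19812 windows), the TSS of the transcript that GENCODE names as representative. DLX2 had 1 NFY match, which 21.4% of windows of that length also hold. No motif of the 12 searched matched in the stretch of PAX8.

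Other members with a promoter region lay lower in the list. TBX21, which encodes T-bet, a T-box factor of T helper 1 and natural killer cells, had a score of 78.5 at 68 bp upstream of a TSS. TBX6, a factor of paraxial mesoderm, had regions of 50.7 and 49.1. In the LIM homeobox family, LHX2, a forebrain and eye factor, had 60.9 and LHX4, a pituitary factor, 24.3. SIX5 and SIX4, of a family that acts with EYA coactivators, had 59.2 and 36.2. SIX5 neighbours DMPK. A separate, weaker region (25.7) 1515 bp upstream of SIX5 lay within 1 kb of an annotated TSS of DMPK.

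Neural POU genes gave low to intermediate scores. POU3F2, known as BRN2, had 54.1 at 18 bp upstream of its TSS, POU4F1, known as BRN3A and active in sensory neurons, 37.8 at 99 bp upstream, and POU3F1, a factor of Schwann cells, 21.4 within 200 bp. PAX6, the factor of eye development, had 54.1 and 17.3, and PAX4, a factor of pancreatic beta cells, 27.2. IRX5 had 40.9 and 25.7, MSX1, a factor of teeth and the face, 34.7, and DLX1 27.2. TBX15 had 39.4, NKX3-2, a factor of the axial skeleton, 17.3, and TBX18 16.0, which is the lowest score of the list.

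The accessible promoters of developmental factors had lower scores than those of all protein-coding genes. The median score of the strongest promoter region was 50.7 over the 23 members (interval of the median 34.7 to 60.9, range 16.0 to 222.7), against 129.6 over all 11499 genes with one (quartiles 49.1 and 334.2). Of the 23, 4 lay above that median, among them EMX1, OTX1 and DLX2, none lay above the upper quartile, and 11 lay below the lower one. The difference had no test, since both medians come from the same pooled call. PAX5, the paralogue left out, had a promoter region with a score of 82.1.

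**Figure D2:**
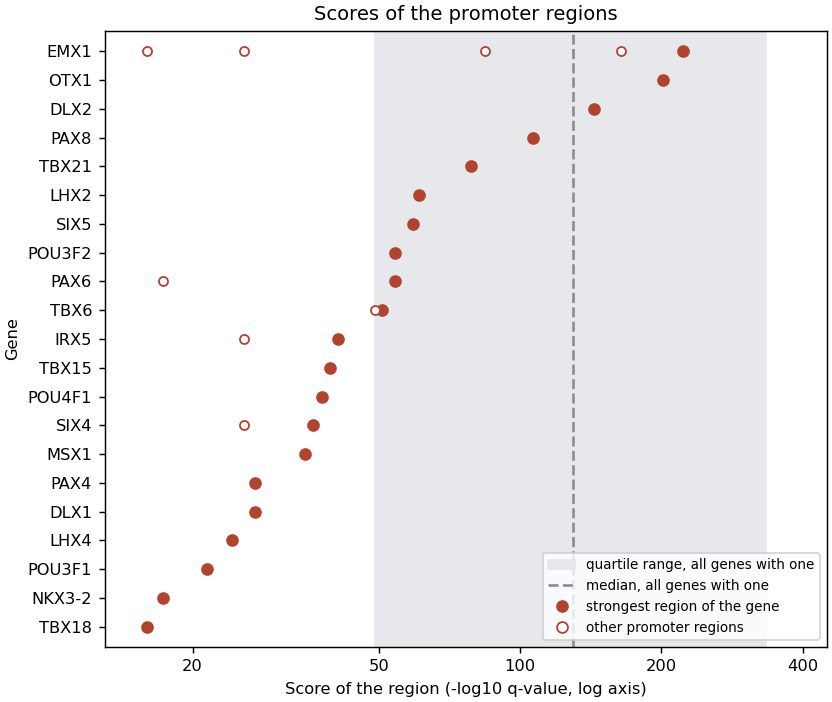
Scores (-log10 q-value, log axis) of the 29 promoter regions of 21 genes, with filled points for the strongest region of each gene, beside the quartile range (49.1 to 334.2) and median (129.6) of all genes with a promoter region. Of the 21 filled points, 3 lie right of the median line, led by EMX1 at 222.7.

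Members without a promoter region included many with CpG-rich starts. The median member had 86 CpG dinucleotides within 500 bp of its most CpG-rich TSS, against 72 for all protein-coding genes, and 80 of 85 members lay in the upper 3 quartiles. Members without a promoter region had a median of 80.5 CpG and members with one 91, against 40 and 81 for all genes without and with one. In the highest quartile (98 to 207 CpG) a promoter region was found at 9 of 26 members (34.6%, interval 17.2 to 55.7), against 68.9% of all genes there. In the third quartile (72 to 97) it was found at 11 of 32 (34.4%, interval 18.6 to 53.2), against 75.3%, and in the second (40 to 71) at 2 of 22 (9.09%, interval 1.12 to 29.2), against 69.6%. The lowest quartile held 5 members, of which PAX4 alone had a region, against 14.8% of all genes. Scores were also lower within quartiles, with medians of 59.2 for members and 110.1 for all genes in the highest one, and 50.7 and 153.6 in the third.

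**Figure D3:**
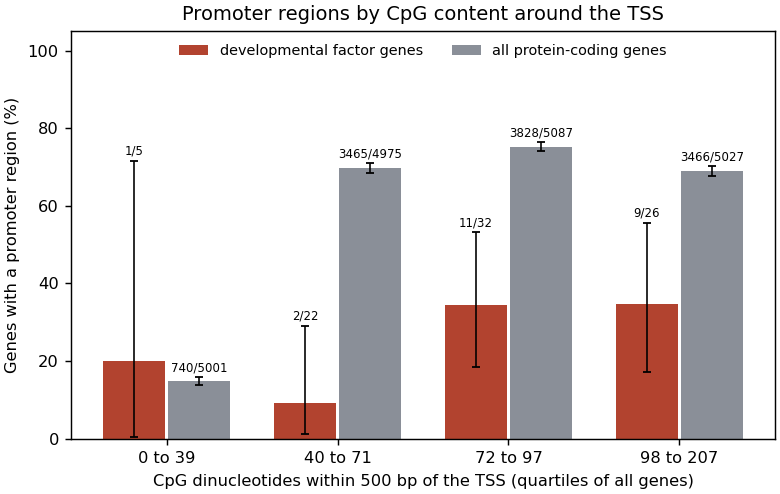
Share of genes with a promoter region (%) by quartile of CpG dinucleotides within 500 bp of the TSS, for developmental factor genes (red) and all protein-coding genes (grey), with exact 95% binomial intervals and counts. In the 3 upper quartiles the members reach 9.09% to 34.6%, against 68.9% to 75.3% for all genes.

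Members with the most CpG and no region are shown beside those above. NKX6-2, a factor of the neural tube and oligodendrocytes, had the most CpG dinucleotides within 500 bp of its TSS of any member, and its closest region lay 18678 bp away. EN2, a factor of the midbrain and hindbrain, came next, with its closest region 55933 bp away. TBX1, tied with EN2 in CpG, had its closest region at 89822 bp. Upstream bases of NKX6-2 (chr10:134599652-134599901, minus strand) and EN2 (chr7:155250574-155250823, plus strand) hold 36 and 45 CpG, more than the EMX1 stretch. Capitals mark CCAAT (NFY) in NKX6-2 and GCGCATGC (the core of NRF1), or its reverse complement, in EN2.
NKX6-2: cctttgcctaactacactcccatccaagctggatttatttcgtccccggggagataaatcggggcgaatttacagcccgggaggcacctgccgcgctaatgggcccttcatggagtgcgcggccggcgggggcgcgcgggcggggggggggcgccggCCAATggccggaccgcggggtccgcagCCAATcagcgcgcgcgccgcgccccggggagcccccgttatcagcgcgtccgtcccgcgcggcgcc
EN2: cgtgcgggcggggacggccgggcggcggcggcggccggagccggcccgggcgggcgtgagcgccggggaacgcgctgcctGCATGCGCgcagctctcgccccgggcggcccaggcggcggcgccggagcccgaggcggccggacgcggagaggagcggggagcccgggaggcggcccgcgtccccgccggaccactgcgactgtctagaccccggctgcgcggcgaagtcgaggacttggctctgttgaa

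NFY matches occur in 34.3% and the NRF1 core in 3.82% of all windows of this length. A match is a run of letters and does not show a bound site.

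Most promoter regions lay at the main start of the gene, and 5 did not. The strongest region was centred within 200 bp of a TSS in 12 of 23 members, between 200 and 500 bp in 5 and farther in 6, and was upstream of the nearest TSS in 18 of 23 if PAX6, at 2 bp, is counted. At the canonical TSS alone, 18 members had a promoter region, against 52.4% of all protein-coding genes. The exceptions included PAX8, PAX4, TBX15 and TBX18, whose regions stood at other annotated TSSs. The PAX8 region was centred 43338 bp downstream of the canonical TSS, in an intron, beside a TSS of the antisense transcript PAX8-AS1. The TBX15 region lay 73386 bp downstream of the canonical TSS in an intron, and the TBX18 region 75173 bp downstream of it, beyond the end of the canonical transcript. The PAX4 region lay 3661 bp downstream in an intron. The regions at TBX15 and TBX18 held no CpG dinucleotide in 501 bases and that of PAX4 held 5, while that of PAX8 held 32. The strongest regions of the 18 members with a promoter region at the canonical TSS held 16 to 73.

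None of the 23 members shared all its promoter regions with another protein-coding gene, against 23.9% of all genes with one (2754 of 11499). A TSS of another protein-coding gene stood within 1 kb of none of the 31 regions. Non-coding transcripts did start nearby in 5 cases, at the strongest regions of DLX2, IRX5, PAX8, POU3F1 and TBX18. Members stand in sparse surroundings: a median of 1 other protein-coding gene had a TSS within 100 kb, against 3 for all genes. Whether sharing bears on the scores was not tested. With regions that other protein-coding genes share left out, the medians were 50.7 for members and 106.3 for all genes.

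Between the 23 members with and the 62 without a region, the limit of 1 kb separated few close cases. Among those just inside it were LHX4 (637 bp), TBX18 (678 bp), PAX4 (728 bp) and TBX15 (832 bp). Just outside it were PAX3 (1230 bp, score 24.3), TBX22 (1476 bp, 16.0), NKX2-5, the cardiac homeobox gene (1616 bp, 16.0), POU4F2 (1752 bp, 37.8) and DLX5 (1944 bp, 17.3). With a window of 2.5 kb these 5 joined, giving 28 members against 60.3% of all genes.

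Of the 62 members without a promoter region, 18 had a listed region in the gene or its 10 kb flanks. The median distance from a TSS to the nearest listed region was 37225 bp for the 62, against 25628 bp for all genes without a promoter region. Over all 85 members the median was 15163 bp (interval 6656 to 34827), against 235 bp for all protein-coding genes. The nearest region lay more than 100 kb away in 15 members (17.6%), against 6.85% of all genes. After the 5 close cases came BARHL2 and DLX6, each with a region of the lowest score at 3265 bp, and LHX9 with one of 28.6 at 4378 bp. The farthest were IRX2 (460022 bp), PAX7, a factor of muscle stem cells (271355 bp), TBX2 (207378 bp) and PAX9 (178122 bp). For 17 of the 62 the nearest region stood within 1 kb of a TSS of another protein-coding gene. LHX6, for example, was 35256 bp from the region of MRRF and RBM18 (302.3), and NKX6-3 14681 bp from one at ANK1.

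**Figure D4:**
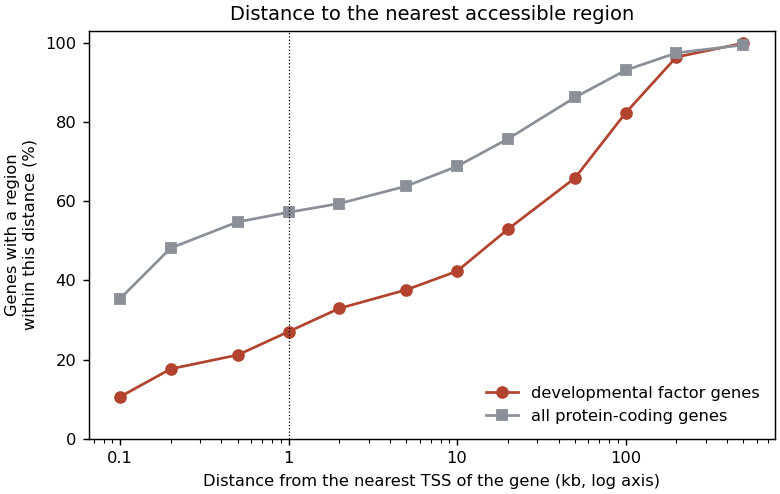
Share of genes (%) with an accessible region within a given distance of any of their TSSs (kb, log axis), for developmental factor genes (red circles) and all protein-coding genes (grey squares), with the limit of 1 kb dotted. Within 10 kb a region is found for 42.4% of members and 68.9% of all genes, and within 200 kb for 96.5% and 97.5%.

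By family, the members without a promoter region were as follows. Of the NKX genes, these were NKX1-1, NKX1-2, NKX2-1, NKX2-2, NKX2-3, NKX2-4, NKX2-5, NKX2-6, NKX2-8, NKX6-1, NKX6-2 and NKX6-3, among them factors of lung and thyroid (NKX2-1) and of motor neurons and beta cells (NKX6-1). LHX1, LHX3, LHX5, LHX6, LHX8 and LHX9 of the LIM homeobox genes had none, and neither did IRX1, IRX2, IRX3, IRX4 and IRX6, nor DLX3, DLX4, DLX5 and DLX6. The T-box genes without one were TBX1, TBX2, TBX3, TBX4, TBX5, TBX10, TBX19, TBX20 and TBX22, which include limb and heart factors such as TBX4 and TBX5. PAX1, PAX2, PAX3, PAX7 and PAX9 lacked one, as did SIX2, SIX3 and SIX6, POU3F3 and POU3F4, and POU4F2 and POU4F3. The families ZIC (ZIC1 to ZIC5), GSX (GSX1, GSX2), EN (EN1, EN2) and BARHL (BARHL1, BARHL2) lacked one throughout, and EMX2, MSX2 and OTX2 lacked one where EMX1, MSX1 and OTX1 did not.

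Regions away from the promoter were fewer per gene, but members are short genes. In the gene and its 10 kb flanks the members held 77 regions, where a region such as that between DLX1 and DLX2 counted for each gene. The median was 0 and the mean 0.906 per gene, against a median of 2 and a mean of 2.52 for all genes. No region was found there for 44 of 85 members (51.8%), against 25.3% of all genes. Of the 77, 31 were promoter regions and 46 lay elsewhere, with a median score of 22.8, against 30.1 for such regions over all genes. Leaving out those within 1 kb of a TSS of another protein-coding gene, members held a mean of 0.494 and all genes 1.21 regions away from their promoters. The median gene length was 6.55 kb for members and 27.3 kb for all genes, and per 100 kb of gene and flanks these means came to 1.29 for members and 1.37 for all genes. Only 2 of these 46 exceeded 100, and both stood at starts of other genes: one of 222.7, 1584 bp upstream of IRX5 at the long non-coding RNA CRNDE, and one of 259.8, 9096 bp upstream of LHX9 at C1orf53. Members with a promoter region held 55 of the 77 regions, a count that includes the 31 promoter regions by definition. Members without one held 22. EMX1 held 7, and LHX2 and IRX5 held 5 each. LHX2 had 4 regions upstream of its promoter region, at 1282 to 4898 bp from a TSS, with scores of 52.4, 47.4, 25.7 and 16.0. NKX3-2 had a region of 83.9 at 4575 bp upstream that exceeded its promoter region of 17.3, and PAX4 one of 76.7 at 2215 bp upstream.

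**Figure D5:**
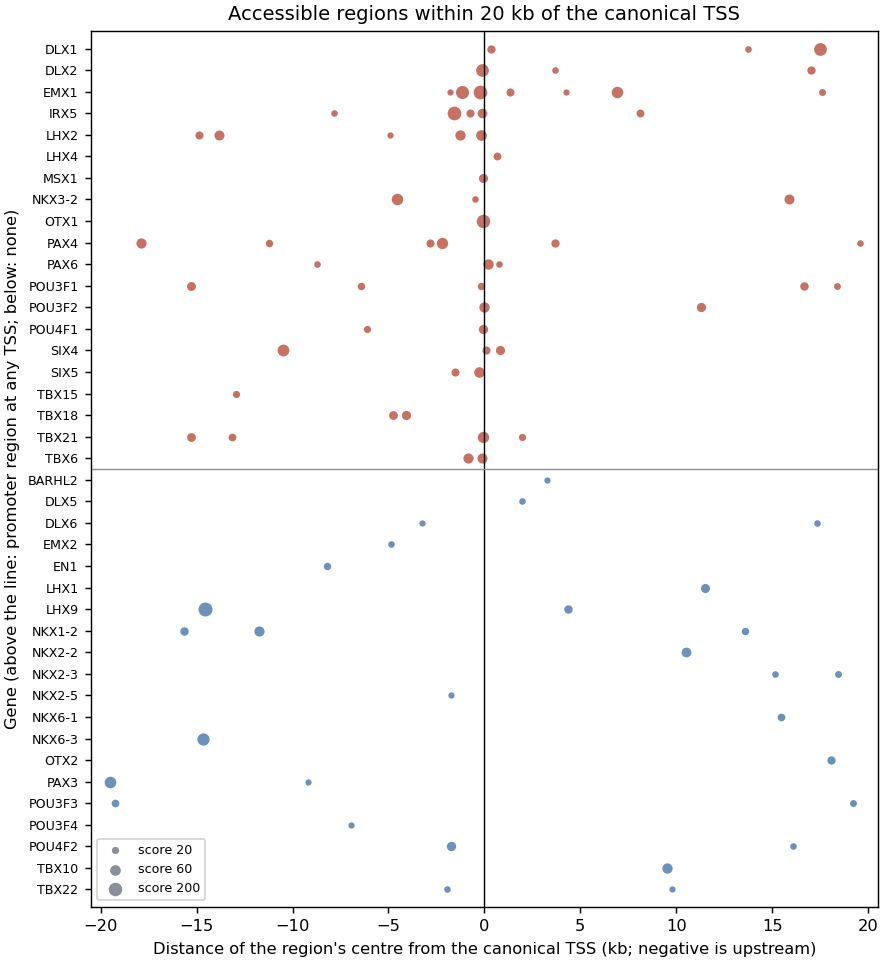
Accessible regions within 20 kb of the canonical TSS, each drawn at its distance (kb, negative upstream) with the area of the point growing with the logarithm of its score, for 20 genes with a promoter region at any TSS (red) and 20 without (blue). PAX8 and the other 42 genes without a promoter region have no region in this range, and 17 of the red genes have a point within 1 kb of the TSS.

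Most groups of neighbouring members had no promoter region. Members were grouped when each had a TSS within 200 kb of at least 1 other in the group. In the 11 groups, 5 of 25 genes had a promoter region, against 18 of the 60 members standing alone. The share was 27.1% over all members and 57.2% over all protein-coding genes. Whether grouped members differ from those standing alone was not tested. In 8 of the groups no gene had one, and in 5 of these no region at all lay between the genes or within 10 kb of them: DLX3 with DLX4, NKX2-1 with NKX2-8 and PAX9, SIX2 with SIX3, TBX2 with TBX4, and ZIC2 with ZIC5. DLX1 and DLX2, convergent genes on chromosome 2, both had a promoter region, although with unequal scores of 27.2 and 143.5. DLX5 and DLX6, a convergent pair on chromosome 7, had none and held regions of 17.3 and 16.0.

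Base composition and motifs were set beside those of all promoter regions of protein-coding genes. The members' median GC content was 67.9% and they held a median of 43 CpG dinucleotides, against 62.1% and 36 over all 16365. On either strand, CCAAT (NFY) was found in 17 of 31 regions (54.8%, exact 95% interval 36.0 to 72.7, against 42.8%), CAGCTG (an E-box) in 9 (29.0%, against 26.9%), GGGGCGGGG (SP/KLF) in 8 (25.8%, against 24.9%) and TGTGGT (RUNX) in 6 (19.4%, against 19.6%). GCGCATGC (NRF1) was found in POU4F1 alone and ATGCAAAT (the octamer of POU factors) in PAX6 alone. CCGGAAGT (ETS) was found in none, against 6.76% of all promoter regions, and so were AGGGGGCGC or AGGTGGCAG (cores of CTCF, 4.65%), TAATTA (homeodomain, 3.93%), TGACGTCA (cyclic AMP response element, 2.72%), TCACACCT (T-box, 1.83%) and TTCAGCACC (REST, 0.825%). With 31 regions, 0 matches allow a share of up to 11.2%, so the difference from these shares was not detectable at this number.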

How the data were processed

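Single-cell ATAC-seq libraries of GM12878 (96 and 95 on 2 plates, 1 group) were pooled by the authors. Per the study's methods, adapters were trimmed and pairs mapped to hg19 with filters on quality, duplicates and mitochondrial DNA, summits were called by MACS2, and the 50000 with the lowest q-value were widened to equal windows. Bowtie2 2.1.0 and Picard 1.79 are named in the submitters' processing notes, and no MACS2 version is given in the sources used here. Each window carries a deposited score, -log10 of its q-value, which served here as a ranking. The list gives no read numbers, so the depth behind each score is not known, and regions below its lowest score (16.0) are not seen.

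Genes and TSSs were those of GENCODE 44 mapped to GRCh37, whose chromosome lengths fit the regions. Members, lists and motifs were chosen with earlier results of these data known. Members with a promoter region are named, except that some genes are not reported here in text or figures, and of those without, the 8 nearest to and 4 farthest from a region are given with values. No test was run. Intervals of shares are exact binomial and intervals of medians use order statistics, at 95%. CpG dinucleotides were counted within 500 bp of the TSS with most of them. Alternatives concerned the promoter window, which TSSs counted, weaker regions, flanks of 0 or 50 kb, the CpG measure and shared regions, and the canonical TSS was added after seeing the data. Counting was tested on simulated data, with 100 of 100 regions planted within 1 kb recovered. Python 3.11.15, numpy 2.4.6, scipy 1.17.1 and matplotlib 3.10.9 were used.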

Additional observations from a re-analysis of the deposited data

How the results depend on the processing

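Of 24 alternatives, 22 left the value within 1.5 times the main count or within the interval of the main median. Some of the 22 could not move. The median of regions per member was already 0. Dropping the flanks, the weaker regions or repeated summits of a called region could therefore only return 0. Leaving out symbols that are not factors of these families gave the main count of 23 again. When a region had to cover a TSS, 15 members had a promoter region, against 50.6% of all genes. With regions at or above the median score alone, the median distance from a member to its nearest region was 87705 bp, against 1661 bp for all genes. Over the other alternatives the number of members with a promoter region ran from 16 (outermost TSS, against 49.2% of all genes) to 28 (window of 2.5 kb). In all, 11 members had one under each of the 6 narrower definitions from the first plan, among them DLX2, EMX1, IRX5, MSX1, OTX1, POU3F2, POU4F1, SIX4, TBX21 and TBX6. No paired analysis was possible because all libraries belong to 1 group and were pooled into 1 list. A member without a listed region may still hold one below the limit of the list.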

Other observations

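Polycomb subunit and TALE homeobox genes had promoter regions in larger shares than the members (27.1%), beside 57.2% of all protein-coding genes. This is a description with no test. The lists were not matched on CpG content, and 75.3% and 68.9% of all genes in the third and highest CpG quartiles had a promoter region. Of 28 Polycomb subunit genes, 23 had one (82.1%, exact 95% binomial interval 63.1 to 93.9), with a median score of 224.9. AEBP2 (609.3), PHF19 (559.4) and EZH2, the histone H3 methyltransferase (519.9), were strongest, while genes such as SUZ12, RING1, PCGF2 and CBX2 had none. Of 11 TALE homeobox genes, whose products bind DNA beside other homeodomain factors, 9 had a promoter region (81.8%, interval 48.2 to 97.7, median score 104.4). PKNOX1 (237.9) and MEIS2 (167.9) were among the strongest, and PBX3 and MEIS3 had none, PBX3 with its nearest region at 1170 bp.

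Among corepressors and coactivators of the members, 6 of 13 genes had a promoter region (46.2%, interval 19.2 to 74.9), beside 57.2% of all protein-coding genes. TLE4, a Groucho corepressor, had a score of 3258.4, far above EYA3 (121.7) and TLE3 (95.0), while TLE1, TLE2, TLE5, LDB2, EYA2, EYA4 and DACH2 had none. Among 16 relatives outside the families' rule, 10 had a promoter region (62.5%, interval 35.4 to 84.8, median score 40.3). The intervals of both lists hold the 57.2% of all genes. POU2F1, whose product OCT1 is found in most cells, had 1380.1, EOMES, a T-box factor of lymphocytes and the embryo, 133.5, and PAX5 82.1. ISL1, ISL2, LMX1A, LMX1B, POU1F1 and POU5F1 had none. These lists are small, and each share is a count over genes of 1 pooled list.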
